A study of Drosophila melanogaster with 2 samples.

Results

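The genes described here are the dpr, DIP, beat and side genes of *Drosophila melanogaster*, 54 of the 13945 annotated protein-coding genes on the 6 chromosome arms of the assembly dm6. They were taken by the start of their symbols. The pattern gave 21 dpr genes, 11 DIP genes, 14 beat genes and 8 side genes. Their peaks come from chromatin immunoprecipitation and sequencing (ChIP-seq) with an anti-GFP antibody. The embryos were of mixed sex and 4 to 14 h old, from flies carrying a stable transgene for E(spl)m8-HLH with GFP fused to its C-terminus. E(spl)m8-HLH is a bHLH repressor induced by Notch signalling. There was 1 group of 2 biological replicates, numbered 2 and 3, both from that line, with no second genotype, treatment or time. Whole embryos mix all tissues, so binding in few cells and weak binding in many cannot be told apart.

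All 4 families encode proteins with immunoglobulin domains that sit on or are released from the surface of neurons and their targets. Dpr proteins (the founding gene, dpr1, was named for a defective proboscis extension response) bind DIP proteins (Dpr-interacting proteins) on opposing cells, and different neurons carry different combinations of them. Beat proteins are recognised by Side proteins in the same manner: motor axons that carry Beat-Ia follow and enter tissue that displays Side. Such pairs help growing axons find partners and muscles, and the genes are switched on mostly in differentiating neurons and muscles, whereas E(spl) repressors act in cells that receive a Notch signal and often hold back neural fate.

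Most of these genes carried no peak in the optimal list, the shorter list that the authors cut at a threshold of reproducibility between replicates. The cut did not require a peak in each replicate list, since the optimal peak at DIP-eta had none in replicate 3. A gene is called bound here when a summit, the highest point of a peak, fell inside the gene or no more than 2 kb from either end. By that rule 9 of the 54 genes (16.7%) were bound, while 36.8% of all protein-coding genes were. The members are long, with a median length of 36.2 kb against 2.17 kb for all protein-coding genes, so the fairer setting is genes of like length, here the 200 genes nearest in length to each member. At the share found among those genes, 34.3 members (63.5%) would have been bound, a ratio of 0.263. With 1 group and no second condition, there is no test between groups, and these ratios describe the lists as deposited.

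The 54 genes held 18 of the 6152 optimal summits, against 115.0 at the mean count of genes of like length. Their bodies and flanks covered 2.74 Mb, or 2.04% of the 6 arms, and took 0.293% of the summits. That is 6.58 summits per Mb (95% Poisson interval 3.9 to 10.4, counting error only), against 46.0 per Mb over the arms. The median member had 0 summits per kb, and the median for genes of like length was 0.0301 per kb. Of the 54, 41 lay below the median of their own like-length genes, 6 lay above it, and the other 7 were equal to it at 0.

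The list called on pooled replicates goes much deeper, to 30000 peaks, and showed the same order. The optimal peaks at members recur in it with the same signal and rank, so it is not an independent list. In it 23 of the 54 members (42.6%) were bound, against 65.9% of all protein-coding genes and 45.6 members at the share of like-length genes, a ratio of 0.504. They held 130 pooled summits against 590.0 at the like-length mean. The median was 0 per kb for members and 0.203 per kb for genes of like length. The share of pooled summits that lay at members was 0.6% among the 1000 strongest peaks and 0.533% among the 6000 weakest, and it stayed under the 2.04% of the arms that their windows cover in every range of rank.

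**Figure D1:**
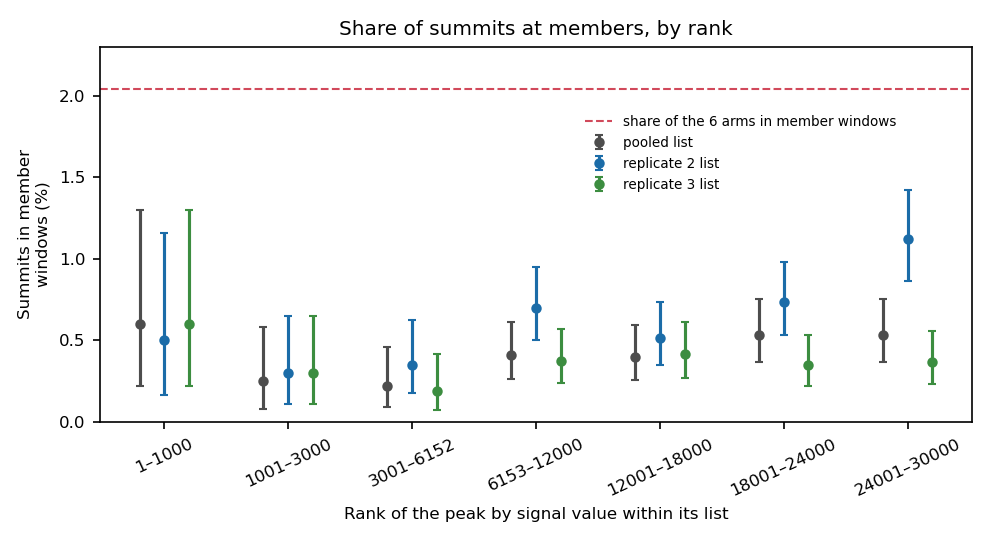
Share of summits that lie in the bodies and 2 kb flanks of the 54 genes (y axis, percent) by rank of the peak within the pooled, replicate 2 and replicate 3 lists (x axis, strongest at left), with exact 95% binomial intervals. All points and intervals sit under the dashed line at 2.04%, the share of the 6 arms that these windows cover, and the highest is 1.12% for the weakest peaks of replicate 2.

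The 2 replicates differed in how many weak peaks they placed at these genes. The list of replicate 2 had a summit at 40 members (74.1%) and that of replicate 3 at 19 (35.2%). Of all protein-coding genes, 69.8% and 66.0% were bound in them, so replicate 2 was not below that share. At the like-length shares, 49.3 and 44.1 members would have been bound. The summits numbered 205 in replicate 2 and 108 in replicate 3, against 593.0 and 582.0 at the like-length means. Of the 54 genes, 17 had a summit in both replicate lists, 23 in that of replicate 2 alone, 2 (dpr18 and side-VII) in that of replicate 3 alone, and 12 in neither. The same split was not computed for all protein-coding genes or for genes of like length. The 23 genes seen in replicate 2 alone had 55 summits there, with a median rank of 21973 of 30000, so most of these were weak. The strongest of the 55 was at dpr2, at rank 2716. When each replicate was limited to its 6152 strongest peaks, the members held 22 summits in replicate 2 and 18 in replicate 3. These bound 13 and 8 members, against 35.1 and 32.8 at the like-length share.

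**Figure D2:**
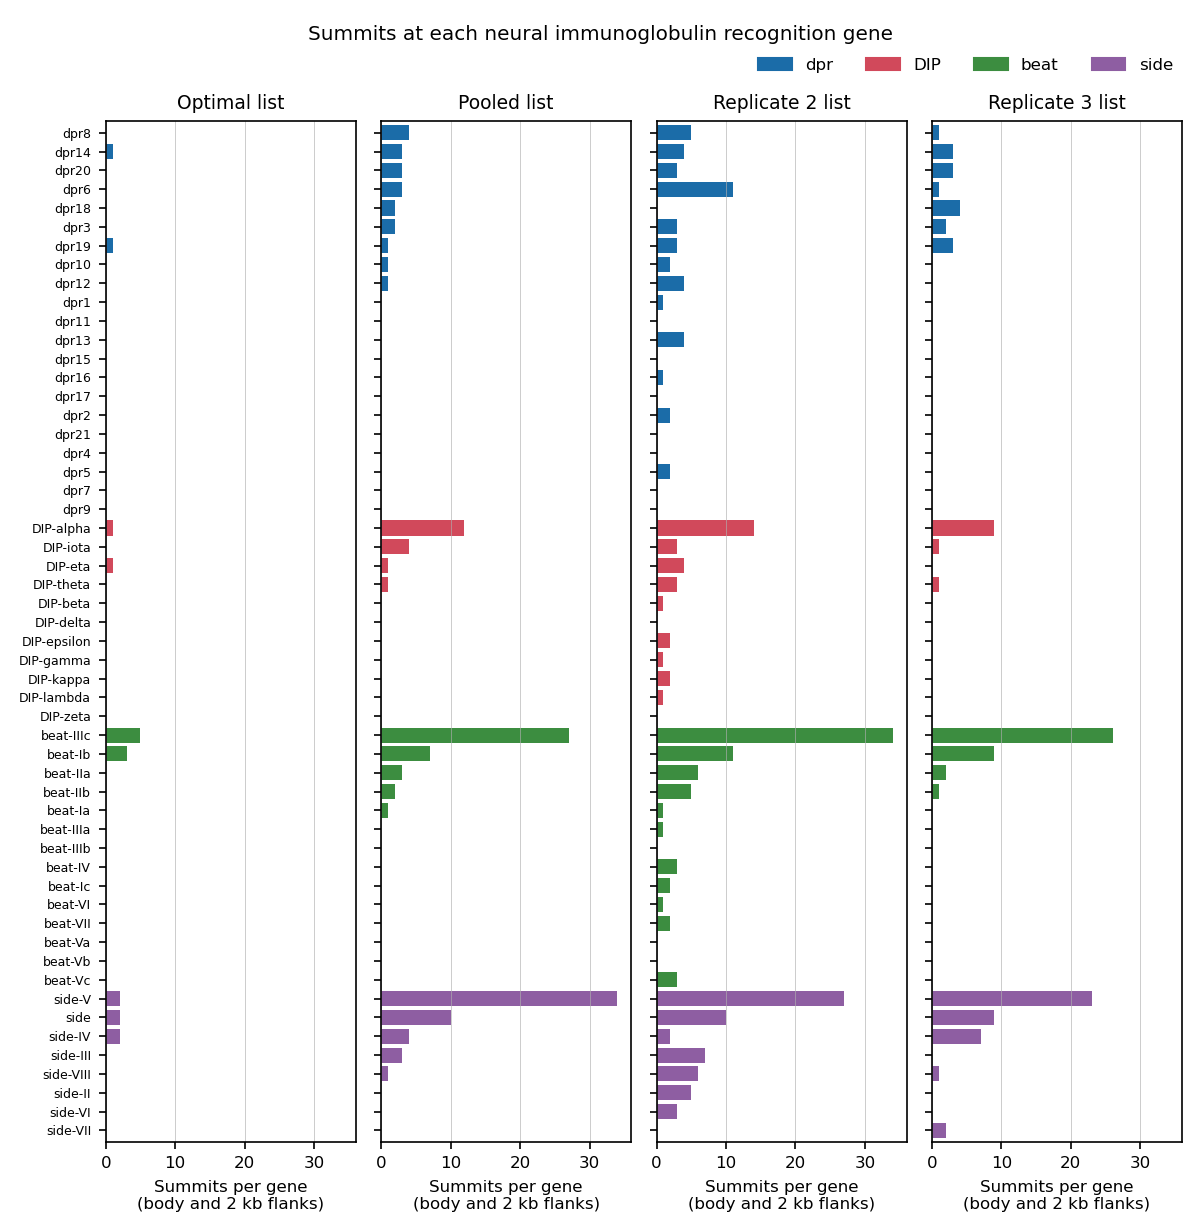
Number of summits in the body and 2 kb flanks of each of the 54 genes (x axis, summits per gene) in the optimal, pooled, replicate 2 and replicate 3 lists, coloured by family. The longest bars belong to beat-IIIc and side-V, and 12 of the 54 rows are empty in all lists.

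In each family, fewer genes were bound than at the like-length share. Among dpr genes, 2 of 21 were bound in the optimal list against 12.7 at the like-length share, among DIP genes 2 of 11 against 7.07, and among beat genes 2 of 14 against 9.19. Among side genes 3 of 8 were bound against 5.27. In summits per Mb of the optimal list, dpr genes had 2.05 (0.249 to 7.42), DIP genes 2.73 (0.33 to 9.85), side genes 13.4 (4.91 to 29.1) and beat genes 13.8 (5.94 to 27.1). The intervals of all 4 families overlap and end below the 46.0 per Mb of the whole list. They take summits as independent, but the 8 beat summits lay at 2 genes and the 6 side summits at 3, so they are too narrow. Pooled summits per Mb were 20.5 for dpr genes and 116.0 for side genes, of which 34 of 52 summits lay at side-V.

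**Figure D3:**
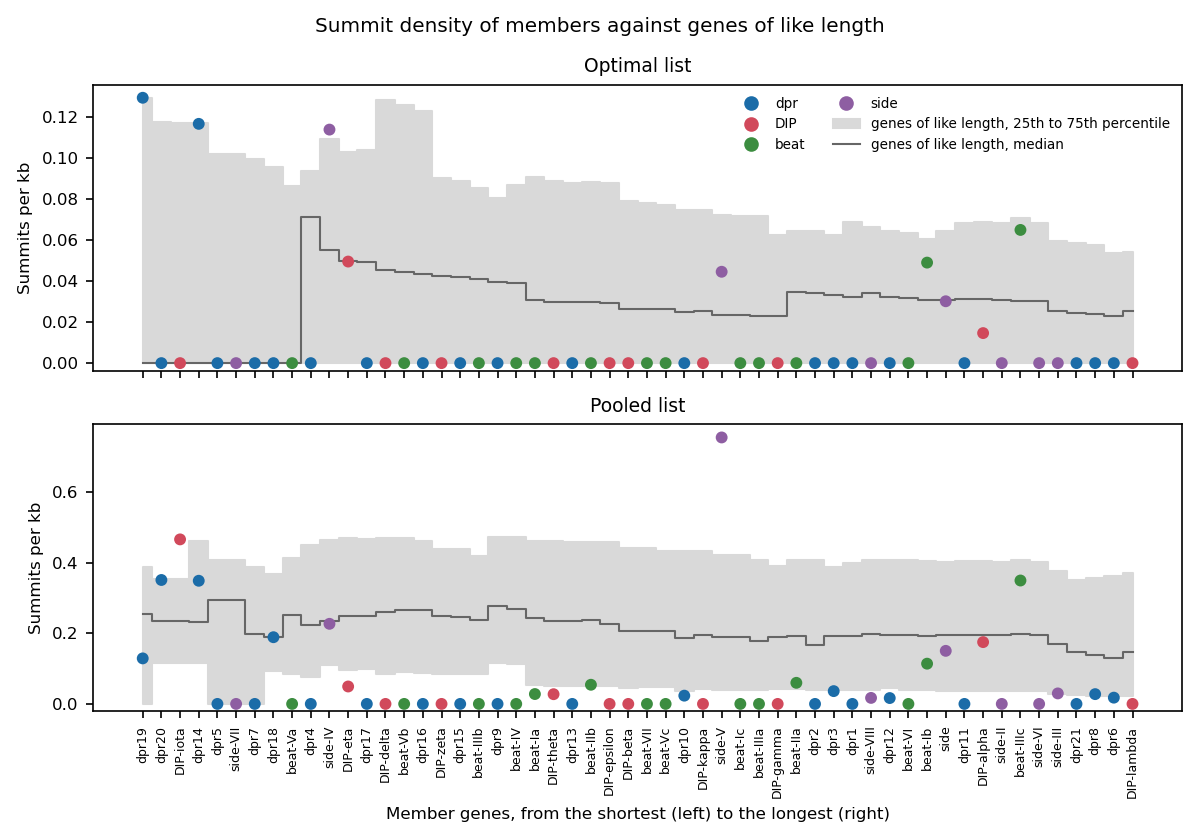
Summits per kb of gene body and flanks (y axis) for each of the 54 genes in order of length (x axis), in the optimal list (top) and the pooled list (bottom); the line is the median and the band the 25th to 75th percentile of the 200 genes nearest in length. In the lower panel 31 of the 54 points lie at 0, and side-V at 0.756 per kb lies above the band.

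The peaks were gathered in few genes. The 5 members with the most optimal summits, beat-IIIc, beat-Ib, side-IV, side-V and side, held 14 of the 18 (77.8%), and DIP-alpha, DIP-eta, dpr14 and dpr19 had 1 each. Of pooled summits, the 5 richest, side-V, beat-IIIc, DIP-alpha, side and beat-Ib, held 90 (69.2%). In both lists the 5 were picked by these same counts, and no such share was computed for genes of like length. No summit of either list was shared by members. The authors' signal value, an enrichment given by their peak caller and used here only to rank peaks within a list, had a median of 393 over the 18 member summits and 290.0 over the whole optimal list. The strongest member summit ranked 416 of 6152.

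The gene with the most optimal summits was beat-IIIc, a Beat family gene of 73.1 kb on 2L. Its 5 optimal summits had signals of 917, 666.5, 330, 221 and 209. The same places had ranks of 860, 841, 3321, 4485 and 6555 in the list of replicate 2. The list of replicate 3 put them at 235, 978, 2106, 4327 and 3863. Both replicates held all 5, and 4 of them ranked higher in replicate 3. Of the 5, 4 lay in intron 2 of 6 (counted in the longest transcript that spans the summit), an intron of 54.4 kb, between 17.2 and 39.1 kb downstream of the start site, and the other lay 1745 bp upstream of it. The pooled list had 27 summits here, 20 of them with a peak in both replicates, against a median of 16.5 for genes of like length. Its neighbours beat-IIIa and beat-IIIb, of 42.1 and 20.9 kb, had no optimal and no pooled summit.

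These sequences are shown because 3 of the 5 summits of beat-IIIc held, within 50 bp, a match to CACGTG or CACGCG, hexamers known to be bound by Hairy and E(spl) repressors. Each runs from 50 bp before to 50 bp after the summit on the plus strand of dm6 (RefSeq Release 6), and capitals mark the match. CACGTG reads the same on both strands, and the capitals of the last sequence are CACGCG read on the other strand.
beat-IIIc, signal 917, chr2L:17222290-17222390: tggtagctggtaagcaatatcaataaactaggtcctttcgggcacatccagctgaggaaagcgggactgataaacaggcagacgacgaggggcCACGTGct
beat-IIIc, signal 221, chr2L:17221560-17221660: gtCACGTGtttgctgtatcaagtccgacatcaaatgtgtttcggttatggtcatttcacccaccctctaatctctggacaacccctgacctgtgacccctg
beat-IIIc, signal 330, chr2L:17262429-17262529: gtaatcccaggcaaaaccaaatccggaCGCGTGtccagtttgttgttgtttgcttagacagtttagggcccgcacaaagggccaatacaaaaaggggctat

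To show what lay under the summits at the other bound genes, the window at the strongest summit of each is given in the same form. Capitals mark TAATTA, a hexamer bound by many homeodomain proteins, where it occurs.
beat-Ib, signal 937, chr2L:15911233-15911333: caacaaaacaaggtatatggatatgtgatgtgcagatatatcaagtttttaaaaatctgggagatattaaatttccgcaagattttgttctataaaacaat
DIP-alpha, signal 880, chrX:3546281-3546381: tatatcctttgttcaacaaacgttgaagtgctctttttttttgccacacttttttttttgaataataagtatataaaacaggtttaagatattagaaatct
dpr14, signal 630, chrX:7908651-7908751: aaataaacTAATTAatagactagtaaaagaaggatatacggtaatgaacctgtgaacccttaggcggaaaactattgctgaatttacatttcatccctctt
side-IV, signal 539, chr3R:13453002-13453102: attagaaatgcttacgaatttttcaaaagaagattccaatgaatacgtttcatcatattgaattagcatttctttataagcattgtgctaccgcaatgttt
dpr19, signal 447, chr2L:10375893-10375993: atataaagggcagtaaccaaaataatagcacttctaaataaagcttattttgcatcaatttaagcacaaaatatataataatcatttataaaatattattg
side, signal 180, chr3R:27419636-27419736: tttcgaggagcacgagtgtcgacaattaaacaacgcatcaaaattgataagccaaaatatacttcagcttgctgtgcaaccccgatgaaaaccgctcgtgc
DIP-eta, signal 169.5, chr2L:5610256-5610356: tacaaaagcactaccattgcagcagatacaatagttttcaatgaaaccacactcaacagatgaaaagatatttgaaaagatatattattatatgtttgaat

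No other member summit of the optimal list held either hexamer. Over all 18 windows the share was 16.7% (exact binomial interval 3.58 to 41.4), against 5.20% of the 6152 windows of the whole list. The 3 matches belong to 1 gene, so they are not 3 independent cases. In a narrower window around the summit the share was 5.56%, and without replicate 3 it was 9.09%. Of pooled windows, 7 of 130 member windows held one (5.38%, against 4.98% of all 30000), and those outside the optimal list were at beat-Ib, side-III, side-V and, at the start site of the neighbouring gene bys, dpr14. In the members' bodies and flanks, CACGTG occurred 361 times and CACGCG 485 times. That is 13.2 and 17.7 per 100 kb, against 12 and 18.9 in genes of like length. Of the 361 CACGTG copies, 5 lay within 50 bp of a pooled summit (1.39%, against 3.78% over all arms), and of the 485 CACGCG copies, 2 did (0.412%, against 3.99%). The members also held fewer pooled summits per Mb, 47.5 against 224.0 over the arms, which bears on these shares. A match is a description of the letters and does not show a binding site.

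**Figure D4:**
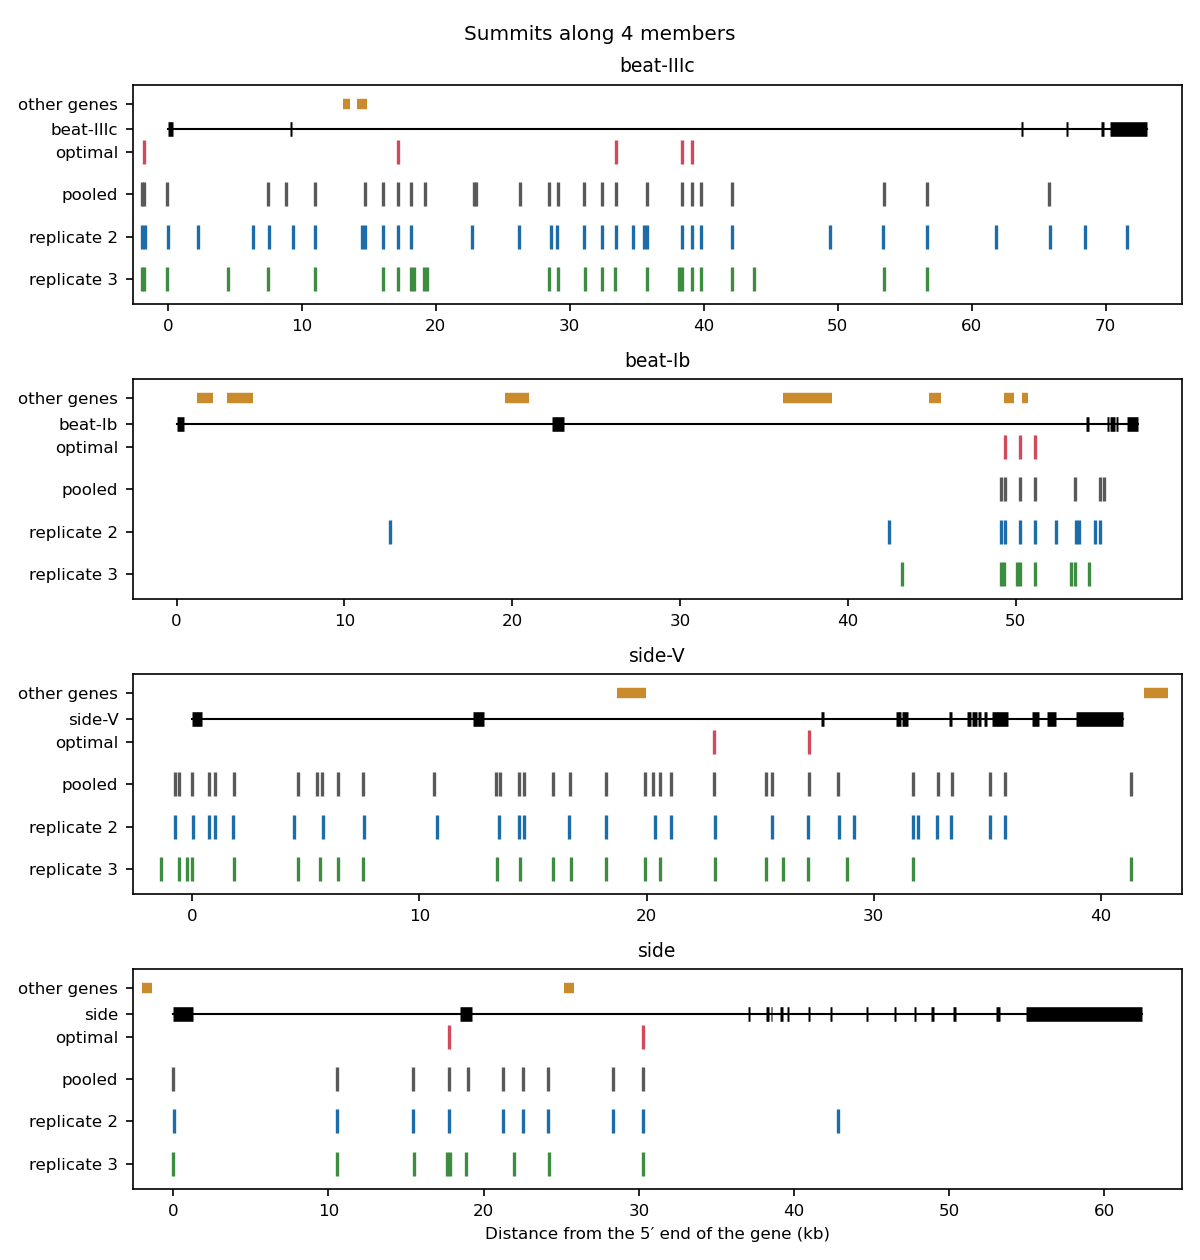
Positions of summits (ticks) in the optimal, pooled, replicate 2 and replicate 3 lists along beat-IIIc, beat-Ib, side-V and side, by distance from the 5′ end of each gene (x axis, kb); black boxes are exons and orange bars other annotated genes. Of the 5 optimal summits of beat-IIIc, 4 fall in its 54.4 kb intron and 1 upstream of the gene, those of beat-Ib lie together near 50 kb, and pooled summits run along nearly the whole of side-V.

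In beat-Ib (57.3 kb, 2L), a relative of the axon guidance gene beat-Ia, 3 optimal summits lay side by side at 49.3, 50.3 and 51.2 kb from the start site, within intron 2 of 6. Their signals were 343.5, 836 and 937. Replicate 2 put them at ranks 2853, 558 and 499, and replicate 3 at 2417, 511 and 357, which is the same order. The 2 stronger ones lay 394 and 408 bp upstream of the start sites of the nested non-coding RNA genes lncRNA:CR44868 and lncRNA:CR44867, and the weakest lay in an exon of lncRNA:CR44868. The rest of beat-Ib, including its own start site, had no optimal summit, and its 7 pooled summits all fell between 49.1 and 55.2 kb. DIP-alpha (64.4 kb, X), the receptor for Dpr6 and Dpr10 on motor neurons, had 1 optimal summit, with a signal of 880 and ranks of 469 and 546 in replicates 2 and 3. It lay 221 bp upstream of another nested gene, lncRNA:CR34335, and 15.7 kb from the nearest DIP-alpha start site. DIP-alpha had 12 pooled summits, close to the median of 14.0 for its length.

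Neither dpr gene that was called bound had a summit inside its body. Each is short, and each shares its upstream region with a gene read in the opposite direction. The summit at dpr14 (4.58 kb, X) had a signal of 630 and ranks of 1060 and 904 in replicates 2 and 3. It lay between start sites 645 bp apart, 415 bp from that of dpr14 and 230 bp from that of spidey, which encodes a steroid dehydrogenase. The summit at dpr19 (3.74 kb, 2L) had a signal of 447 and ranks of 1684 and 1671, and lay 225 bp from the start site of dpr19 and 186 bp from that of CG33303, which are 411 bp apart. At such a distance a peak cannot be assigned to 1 of the genes.

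Members of the Side family, the surface proteins that Beat proteins recognise, made up 3 of the 9 bound genes. side-IV (13.6 kb, 3R) had 2 optimal summits, with signals of 539 and 442, both in its intron 2 of 16, at 2.46 and 3.58 kb from the start site. Their ranks were 1507 and 1651 in replicate 2, and 1086 and 1798 in replicate 3. side (62.4 kb, 3R), the founding gene, had 2 summits near the end of the list, with signals of 180 and 173, at 17.8 and 30.3 kb from its start. The replicates did not rank these alike: 9114 and 4699 in replicate 2, 4134 and 10173 in replicate 3. side-V (41.0 kb, 2R) had 2 intronic summits, with signals of 275.5 and 233. Replicate 2 put them at ranks 3820 and 3356, and replicate 3 at 2607 and 5390. It differed from the other members in the pooled list, where it held 34 summits against a median of 8.0 for its length, more per kb than 98% of its 200 neighbours in length. These were mostly weak, with a median signal of 59.4, and 15 of the 34 had a peak in both replicates. DIP-eta (16.2 kb, 2L) had the weakest member summit, with a signal of 169.5 (rank 6139 of 6152), a rank of 5618 in replicate 2 and no peak in replicate 3.

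G and C made up a median of 28.7% of the 18 member windows (19.8 to 52.5%), against 32.7% in the whole optimal list. Among the 9 member summits at rank 2000 or better the median was 24.8%, against 29.7% for all summits of that rank, and the strongest summit of beat-IIIc stood apart at 52.5%. The other 9 member summits had a median of 43.6%, against 34.7% for the rest of the list. Their highest values, 48.5, 49.5 and 49.5%, were all at beat-IIIc, so the 9 are not independent. Of these 9, 4 (44.4%) were under 35%, against 52.1% of the rest of the list. Among the 9 at rank 2000 or better, 8 (88.9%) were, against 68.8% of all summits of that rank. The division at rank 2000 was set after the values were seen. TAATTA occurred in 5 of the 18 windows (27.8%, 9.7 to 53.5), against 9.85% of the whole list, and in 9 of the 130 pooled windows (6.92%), the same share as in all 30000. None of the 18 held the E-box CATATG, the core of GATA factor sites AGATAA, or the promoter element ATCGATA, which occurred in 4.14%, 7.93% and 2.6% of all optimal windows; with 18 windows, a share of up to 18.5% remains within the exact interval. AAAAAA was in 22.2% of member windows and 25.1% of all. The motifs were searched on both strands.

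**Figure D5:**
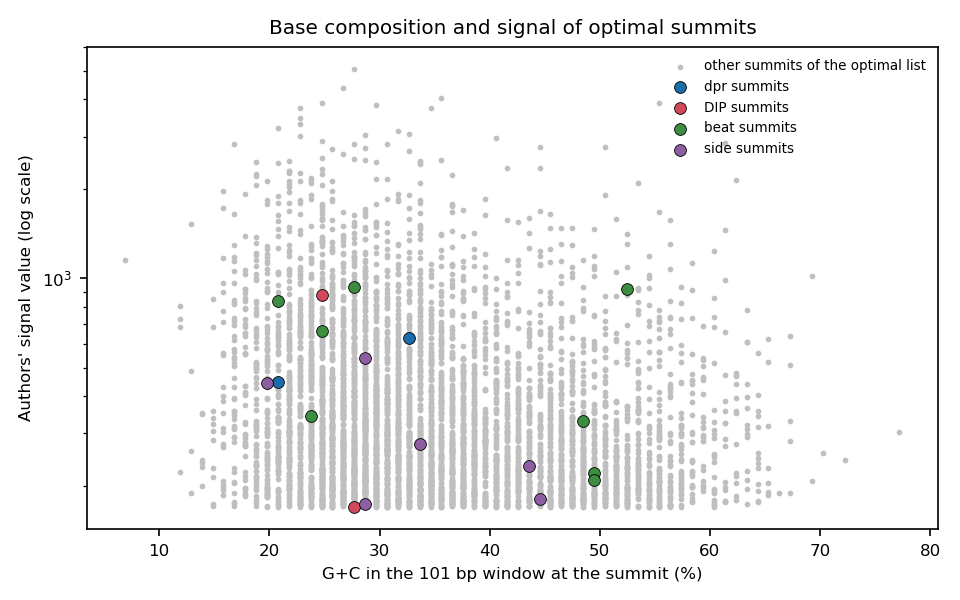
Signal value of each optimal summit (y axis, log scale) against the G and C content of the window from 50 bp before to 50 bp after the summit (x axis, percent), with the 18 summits at the 54 genes coloured by family over the other summits in grey. The member summits lie within the spread of the rest, and 12 of the 18 (66.7%) are under 35%, against 57.5% of the whole list.

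The start sites of the members were mostly free of peaks. A summit of the optimal list lay within 500 bp of a start site of 2 of the 54 genes (dpr14 and dpr19), against 20.4% of all protein-coding genes and 16.6 members at the share of like-length genes. In the pooled list 10 members had one, against 47.9% of all protein-coding genes and 36.3 at the like-length share. These were dpr10, dpr14, dpr19, DIP-iota, beat-Ia, beat-IIa, beat-IIIc, side, side-IV and side-V. Apart from dpr14 and dpr19, the strongest of them was side-V, 21 bp downstream of its start site, with a signal of 155.5 at rank 6813, just below the end of the optimal list.

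A summit no more than 500 bp from a start site of any gene was counted as promoter, and otherwise as exon, intron or intergenic, in that order. Of the 18 member summits, 11 were intronic (61.1%, 35.8 to 82.7), 5 at promoters (27.8%, 9.7 to 53.5), 1 in an exon and 1 intergenic. Among the peaks stronger than the list's median, 36.4% of 11 member summits were in introns and 45.5% at promoters, too few to order the 2. Like-length shares were not computed for these stronger peaks. With a promoter window of 200 bp, 77.8% of the 18 were intronic and 5.56% at promoters. For genes of like length, over the whole list at 500 bp, the summits of each member's neighbours were averaged and then added up over members. Their shares were 65.0% in introns and 28.0% at promoters, which lie within the members' intervals. All 11 intronic summits were in an intron of the member itself with no other gene there, between 2.46 and 39.1 kb from the nearest start site of the member (median 23.0 kb). For none of the 5 promoter summits was a member's start site the nearest: 3 were nearest to nested non-coding RNA genes and 2 to the protein-coding neighbours of dpr14 and dpr19. In the pooled list 96 of 130 member summits were intronic (73.8%, 65.4 to 81.2), against 70.2% for genes of like length taken in the same way, and 22 were at promoters (16.9%, 10.9 to 24.5), against 20.8%. Both shares of like-length genes again lie within the members' intervals. These intervals take summits as independent, although 34 of the 130 lay at side-V. Of the 22 pooled promoter summits, 8 had a member's start site as the nearest.

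Among genes whose products bind each other, some sets held optimal peaks at 1 partner and others at none. As 9 of the 54 members (16.7%) were bound in that list, this says little about the pairing. In the pooled list, every gene named below in the sets of side, side-IV and DIP-alpha had a summit. For the receptor and ligand of motor axon guidance, side had 2 optimal and 10 pooled summits, whereas beat-Ia (31.7 kb) had none in the optimal list and 1 in the pooled list, 218 bp upstream of its start site, at rank 6636 in replicate 2 and with no peak in replicate 3. Of beat-IIa, beat-IIb and their partner side-IV, only side-IV was bound in the optimal list, and the others had 3 and 2 pooled summits. beat-Va, beat-Vb, beat-Vc and their partner side-VI had no optimal and no pooled summit; replicate 2 listed 3 summits at beat-Vc and 3 at side-VI, and replicate 3 none. DIP-alpha had 1 optimal summit, and its ligands dpr6 (165 kb) and dpr10 (38.7 kb) had none, with 3 and 1 in the pooled list. DIP-gamma and dpr11, a pair used in colour vision circuits, had no optimal and no pooled summit, and DIP-delta and dpr12 had 0 and 1 pooled summits.

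Of the 54 genes, 12 had no summit in any of the 4 lists: dpr4, dpr7, dpr9, dpr11, dpr15, dpr17, dpr21, DIP-delta, DIP-zeta, beat-IIIb, beat-Va and beat-Vb. The share of other genes without a summit in any list was not computed. The 14 members bound in the pooled list but not in the optimal list had 1 to 4 summits each: dpr3, dpr6, dpr8, dpr10, dpr12, dpr18, dpr20, DIP-theta, DIP-iota, beat-Ia, beat-IIa, beat-IIb, side-III and side-VIII. The strongest of these peaks was at dpr20, 570 bp upstream of its start site, with a signal of 165 at rank 6341. The other members without a pooled summit were dpr1, dpr2, dpr5, dpr13, dpr16, DIP-beta, DIP-epsilon, DIP-gamma, DIP-kappa, DIP-lambda, beat-Ic, beat-IIIa, beat-IV, beat-Vc, beat-VI, beat-VII, side-II, side-VI and side-VII. Of the 36 members longer than 20 kb, 31 had no optimal summit. Among genes of like length to all 54 members, 63.5% were bound in that list, and no share was computed for these 36 alone. The longest, DIP-lambda, spans 379 kb and had no pooled summit, where genes of like length, mostly shorter than it, had a median of 19.0. Replicate 2 listed 1 summit there, at rank 29236. Read depth and mappability at these genes could not be checked.

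Other immunoglobulin genes of the nervous system were bound about as often as genes of their length. In a comparison list of 35 genes for other surface and secreted proteins, mostly with immunoglobulin domains, 20 were bound in the optimal list against 21.3 at the share of genes of like length (0.94), and 30 in the pooled list against 28.7. The strongest summits were at kirre, a myoblast fusion receptor (1402), Ama, a secreted immunoglobulin protein (1294), fra, the Netrin receptor (1140, nearest to the start site of CG33752), and ed, an adhesion protein (683). The list was not uniform, since Dscam2, Dscam3, Dscam4, fred and kek3 had no pooled summit. cDIP, whose leucine-rich product binds Dpr and DIP proteins, had 0 optimal and 4 pooled summits. Whether the members differ from this list was not tested.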

How the data were processed

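ChIP-seq peaks were taken from 4 lists deposited on dm6: an optimal list, a pooled list and 1 list for each of the 2 replicates, all derived from alignments and a control per the text deposited beside them. Chromatin was sonicated to 200 to 800 bp per the labels. For the aligner, the peak caller and its thresholds, none is given in the sources used here. The deposited text names 1 control shared by both replicates, not analysed here. The signal value is the authors' own enrichment per peak, as deposited. The −log10 q-value was also deposited by the authors and was not used further. Read depth is unknown, and nothing beyond the labels says how the replicates were raised.

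Summits (start plus the summit offset, 1-based here) were compared with the Ensembl release 115 annotation without transposable elements, and sequence was read from the RefSeq Release 6 genome; every peak lay within its arm. Genes of like length were the 100 next shorter and 100 next longer other protein-coding genes, fewer above the longest members. The neighbours of different members overlap. Shares carry exact 95% binomial intervals, which cover counting error only. Counting was tested on simulated data. Python 3.11.15, pandas 2.3.3, numpy 2.4.6 and scipy 1.17.1 were used.

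The members, the partner pairs and the comparison list were chosen with earlier results of these data known. Genes given in full were to be the 10 with the most optimal summits and the 8 with the strongest, which came to the 9 that had any, the partner pairs, and the comparison genes with the 4 strongest summits; others are named by count, and a few were singled out after their values were seen. Of member windows in the optimal list, those at the strongest summit of each bound gene and those with CACGTG or CACGCG are printed, apart from arm 2R. Alternatives covered flanks, promoter and motif windows, stronger peaks, the overlap that counts as shared, and each replicate alone.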

Additional observations from a re-analysis of the deposited data

How the results depend on the processing

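Of 76 alternative values for 11 results, 64 stayed within 1.5 times the count or within the interval of the value given. The number of members bound in the optimal list ran from 6 to 13 and its ratio to genes of like length from 0.237 to 0.371, all below 1. In the pooled list it ran from 16 to 40 (ratio 0.379 to 0.811); without replicate 3 it was 40 and without replicate 2 it was 19, and the median per kb was 0.0459 and 0. Without replicate 2 or replicate 3 the median signal was 200.0 and 149, on the scale of another list. With a promoter window of 200 bp, promoters held 5.56% of optimal and 10% of pooled member summits, and with 1 kb they held 26.2% of the pooled ones. In gene bodies alone, pooled shares were 86.1% in introns and 9.26% at promoters, and with flanks of 5 kb 63.9% were in introns. A peak in both replicates was found for 94.4% of member summits (96.9% of the optimal list), for 100% in the stronger 50% of peaks, and for 66.7% under a reciprocal overlap of 50%. Without replicate 3, 45.5% of member summits were intronic and 36.4% at promoters, and in the stronger 50% of the list 36.4% were intronic and 45.5% at promoters. The share of member windows with CACGTG or CACGCG ran from 9.09% to 22.2% without a replicate. The 18 optimal summits limit every share of them. No paired analysis was possible because there is 1 group.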

Other observations

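The DNA around the 54 genes held more summits per Mb than the genes, and fewer than the arms as a whole. Between 2 and 52 kb from the members, with every base counted once and the members' own windows left out, 4.67 Mb held 132 optimal summits. That is 28.3 per Mb (95% Poisson interval 23.6 to 33.5, counting error only), against 6.58 inside the members and 46.0 over the arms. The pooled list had 558 summits there, or 119.0 per Mb, against 47.5 inside and 224.0 over the arms. The difference was not tested.

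By arm, optimal summits were at 4 of 16 members on 2L (36.5% of all protein-coding genes there), 2 of 5 on X (36.1%), 2 of 21 on 3R (38.0%), 1 of 7 on 2R (35.1%), 0 of 4 on 3L (38.8%) and 0 of 1 on arm 4 (15.0%). The members' bodies and flanks had a median of 41.5% G and C, against 41.8% for genes of like length and 43.9% for all protein-coding genes.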
